A study of Mus musculus with 66 samples.

Results

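The 9 genes described here, Defa6, Mmp7, Lyz1, Ang4, Itln1, Mptx1, Reg1, Reg3b and Reg3g, encode proteins that the epithelium of the small intestine secretes or stores in granules, most of them acting against microbes. They were chosen by name, as every row of the deposited expression table that carries one of these symbols. This gave 10 transcript rows of the 9481 in the table, because Itln1 is listed as NM_010584.3 and XM_006496676.1. All 10 rows passed the filter on low counts, which kept 9288 transcripts for testing. Below, all transcripts means those of this table, which may hold only transcripts also quantified as protein.

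The study compared 3 cultures of mouse small intestinal organoids, which are gel-embedded epithelial structures that renew themselves from stem cells. Per the study's methods, the organoids grown in these media carried the Lgr5 GFPDTR/+ allele, in which a fluorescent protein and a toxin receptor mark the stem cell gene Lgr5. ENR organoids grew in the regular medium with epidermal growth factor, Noggin and R-Spondin-1, an enhancer of Wnt signalling. CV organoids received the same medium with CHIR99021 (3 µM), which activates Wnt signalling by blocking the kinase GSK3, and valproic acid (1 mM), a histone deacetylase inhibitor. EN organoids received the medium without R-Spondin-1, and the CV and EN treatments lasted different numbers of days. The methods give C57BL/6 and 129/ola as the strains of the Lgr5 GFPDTR/+ mouse, and its age is not given in the sources used here. RNA-seq and ATAC-seq, which reads open chromatin, had 4 libraries per culture. The histone marks H3K27ac and H3K4me3 of active chromatin and H3K27me3 of repressed chromatin were each used in 3 libraries per culture, and binding of the transcription factor Hnf4g in 1. The sources do not say whether the libraries of a culture came from separate organoid cultures, so p-values measure the spread between these libraries, which may be technical.

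Paneth cells sit among the stem cells at the crypt base and release granules that hold alpha-defensins, lysozyme and other antimicrobial proteins. Their formation depends on Wnt signalling, and the genes of their granules are classic markers of the cell type. The Reg proteins are small secreted C-type lectins, of which Reg3b and Reg3g kill bacteria and are made by enterocytes as well as by Paneth cells, and their genes are known to respond to microbes and to interleukin 22.

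The RNA libraries held 6636675 to 7354602 expected counts in CV, 5685958 to 7408738 in ENR and 5630951 to 8859744 in EN. Together the 9 genes took 0.771% to 0.800% of the counts in CV, 0.805% to 0.847% in ENR and 2.15% to 2.66% in EN. Markers of other cells moved with the cultures. The summed level of 9 enterocyte markers was 7650 to 8060 CPM in CV, 8960 to 10200 CPM in ENR and 57700 to 60200 CPM in EN, where CPM is the count per 1000000 of the TMM-scaled library size. From CV to ENR 4 of these 9 rose and 4 fell by the edgeR test given below (29.8% and 30.2% of all transcripts). The sum was carried there by Sis, with means of 1240 CPM in CV and 4480 CPM in ENR. For 7 of 8 goblet cell markers in the table the sum was 862 to 956 CPM in CV and 10500 to 11700 CPM in EN. For 9 markers of stem and cycling cells it was 2390 to 2460 CPM in CV, 4470 to 4610 CPM in ENR and 238 to 248 CPM in EN. From CV to ENR the marker Olfm4 rose by 6.78 on the log2 scale, beside a median of 0.52 for the 11 rows of these markers. In the paper's imaging of the Lgr5 reporter, stem cells were the main cell type in CV. For 5 of 8 enteroendocrine markers the sum was 39.1 to 41.9, 356 to 373 and 865 to 1350 CPM in CV, ENR and EN, and for 4 of 7 tuft cell markers 1.62 to 4.22, 36.9 to 40.1 and 81.5 to 114 CPM. For 4 of 8 immune cell markers it was low but also moved, with 4.32 to 6.51 CPM in CV, 7.44 to 9.86 CPM in ENR and 15.3 to 20.3 CPM in EN, and of these markers Cd3e was at 0 in all 12 libraries. The part of these shifts in the results below was not tested, and in bulk libraries fewer cells of a type and less RNA per cell cannot be told apart.

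From CV to ENR, 6 of the 10 rows rose and 3 fell, against 59.9% of all transcripts called (29.8% higher and 30.2% lower). From ENR to EN, all 10 were called, 4 higher and 6 lower, where 72.7% of all transcripts were called (35.5% higher and 37.2% lower). From CV to EN, 4 were higher, 5 lower and 1 was not called, against 76.4% of all (35.2% higher and 41.2% lower). The 4 libraries of each culture did not overlap for 10, 10 and 9 of the 10 rows in these comparisons, against 65.8%, 74.2% and 76.5% of all transcripts. A call is an adjusted p under 0.01 in edgeR's quasi-likelihood test with Benjamini-Hochberg adjustment over the 9288 transcripts. The share called was thus high among all transcripts too. The median log2 fold change of the 10 rows was 0.32 from CV to ENR, -1.35 from ENR to EN and -0.38 from CV to EN, beside 0.01, -0.01 and -0.08 for all transcripts. The 3 comparisons share their libraries pairwise. From ENR to EN the genes of Paneth cell granules and Itln1 fell, and the 3 Reg genes and Mptx1 rose.

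**Figure D1:**
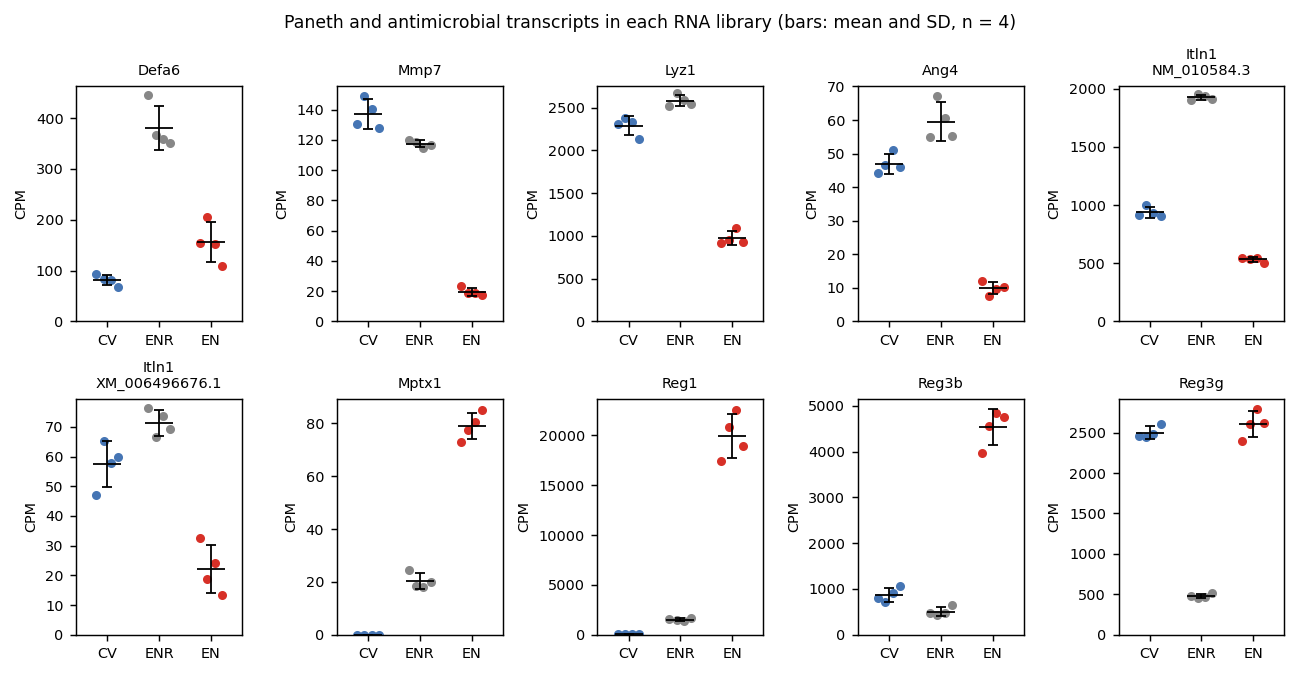
The level of each transcript row in CPM (vertical axis, from 0, its own scale per panel) in each of the 4 RNA libraries of CV, ENR and EN (points), with the mean and SD as black bars. Defa6 and Itln1 NM_010584.3 peaked in ENR, Mmp7, Lyz1 and Ang4 were lowest in EN, Reg1, Reg3b and Mptx1 were highest in EN, and Reg3g was lowest in ENR.

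Defa6 encodes an alpha-defensin, a small cationic peptide of Paneth cell granules. Its level was 92.8, 84.1, 82.1 and 68.2 CPM in the CV libraries, 444.8, 366.9, 359.1 and 351.8 CPM in ENR and 154.6, 206.4, 151.9 and 109.8 CPM in EN. All ENR libraries lay above all EN libraries, and these above all CV libraries. Defa6 thus rose by 2.22 on the log2 scale from CV to ENR (standard error 0.15, edgeR with Benjamini-Hochberg adjusted p = 3.2e-09). It then fell by 1.30 on the log2 scale in EN (standard error 0.14, edgeR with Benjamini-Hochberg adjusted p = 4.1e-07). Per length and depth, in TPM, Defa6 was the first of the 10 rows in ENR with 5630 ± 296 TPM (SD, n = 4) and the fifth in CV with 1330 ± 86 TPM. None of its 12 expected counts was whole (within 1e-06), as kallisto gives where a read matches more than 1 entry. Its value therefore depends on which entries the table lists.

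The other alpha-defensins in the table are the closest paralogs of Defa6. Of 9 rows with a Defa symbol, 8 rose from CV to ENR and 1 fell, with log2 fold changes from -1.34 to 2.36, where 29.8% of all transcripts were called higher and 30.2% lower. From ENR to EN all 9 fell, by log2 fold changes from -3.46 to -1.19, where 37.2% of all were called lower. From CV to EN, 1 was higher and 7 were lower, and Defa30 was not called. Of these 9, Defa24 was the row that ended above CV, with 201 ± 19 CPM in CV, 1030 ± 72.8 in ENR and 454 ± 29.3 in EN (SD, n = 4). Defa17, in contrast, had 365 ± 33.4 CPM in CV, 1320 ± 71.5 in ENR and 145 ± 13 in EN (SD, n = 4). Defa2 was the defensin that was highest in CV, with 107 ± 19.8, 42.4 ± 5.52 and 3.94 ± 0.697 CPM in CV, ENR and EN (SD, n = 4). Nearly all values of these rows were fractional too, so the split of reads between them is uncertain. The lower rows Gm15292 and Gm14851, which RefSeq lists as alpha-defensins, and AY761184 had log2 fold changes of 3.24, 3.94 and 5.22 from CV to ENR and -3.45, -2.68 and -2.63 from ENR to EN, all called by edgeR. Gm14851 (1.27) and AY761184 (2.59) were also called higher in EN than in CV.

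Mmp7, or matrilysin, is the protease that cuts pro-defensins into active peptides in mouse Paneth cells. Its level was 130.7, 149.2, 140.4 and 128.1 CPM in the CV libraries, 120.1, 118.3, 114.9 and 116.8 CPM in the ENR libraries and 23.5, 18.8, 19.1 and 17.4 CPM in the EN libraries. CV and ENR lay close together, and EN lay far below both. The log2 fold change was -0.22 from CV to ENR (standard error 0.06, edgeR with Benjamini-Hochberg adjusted p = 0.0045) and -2.57 from ENR to EN (standard error 0.08, adjusted p = 1.1e-13 by the same test). The first of these calls was lost when any of 5 single libraries was left out, with adjusted p up to 0.021. Mmp7 was thus a little lower in ENR than in CV, while Defa6 was 4.66-fold higher in ENR. The gene AV064505 overlaps Mmp7 in the annotation.

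Lyz1 is the Paneth cell lysozyme, an enzyme that breaks bacterial cell walls. It had 2311, 2383, 2333 and 2130 CPM in the CV libraries, 2521, 2667, 2592 and 2537 CPM in the ENR libraries and 914.2, 951.3, 1098 and 931.1 CPM in the EN libraries. Its level in ENR was 2.65-fold that in EN, with a log2 fold change of -1.41 (standard error 0.05, edgeR with Benjamini-Hochberg adjusted p = 1.6e-12). From CV to ENR the log2 fold change was 0.17 (standard error 0.05, edgeR with Benjamini-Hochberg adjusted p = 0.0087), a call lost in 8 of 12 fits that left out a library, with adjusted p up to 0.031. In TPM, Lyz1 held nearly the same level in CV (3280 ± 128 TPM) and ENR (3320 ± 95 TPM; SD, n = 4).

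Ang4, a ribonuclease of the angiogenin family found in Paneth cells, was the lowest of the granule genes. Its level was 44.2, 46.6, 51.2 and 45.9 CPM in the CV libraries, 54.9, 67.3, 60.7 and 55.1 CPM in the ENR libraries and 12.2, 7.71, 9.63 and 10.4 CPM in the EN libraries, where it rests on 36 to 91 counts. All 4 ENR libraries lay above all CV libraries, and all EN libraries lay below both. The log2 fold change was 0.34 from CV to ENR (standard error 0.09, edgeR with Benjamini-Hochberg adjusted p = 0.0027) and -2.54 from ENR to EN (standard error 0.11, adjusted p = 6e-12 by the same test). The first call was lost when CV1 (adjusted p = 0.011) or ENR2 (0.012) was left out, and with spike-in scaling (0.062), TPM (0.2) or mRNA copies (0.52), by edgeR for the first 3 and limma for the others. Its paralog Ang was low, with 18.9 ± 2.29 CPM in CV, 8.92 ± 1.45 in ENR and 6.83 ± 1.16 in EN (SD, n = 4).

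Itln1 encodes intelectin, a lectin that binds sugars of microbial surfaces and is secreted by Paneth and goblet cells. The main row, NM_010584.3, had 913.1, 1005, 929.7 and 904.2 CPM in the CV libraries, 1908, 1954, 1937 and 1910 CPM in the ENR libraries and 547.6, 536.5, 548.4 and 502.3 CPM in the EN libraries. It rose 2.05-fold from CV to ENR (log2 fold change 1.04, standard error 0.04, edgeR with Benjamini-Hochberg adjusted p = 6.9e-12). It fell by 1.85 on the log2 scale from ENR to EN (standard error 0.04, edgeR with Benjamini-Hochberg adjusted p = 2.7e-15). Like Defa6 it peaked in ENR, but unlike Defa6 it was lower in EN than in CV, by a log2 fold change of -0.81 (standard error 0.04, adjusted p = 2.6e-11 by edgeR), a direction that turned to 0.02 with the deposited mRNA copies. The row XM_006496676.1 was far lower, with 57.5 ± 7.69 CPM in CV, 71.3 ± 4.39 in ENR and 22.1 ± 8.17 in EN (SD, n = 4). Its 4 ENR libraries lay above its 4 CV libraries, yet the log2 fold change of 0.31 did not pass the test (adjusted p = 0.09, edgeR with Benjamini-Hochberg adjustment). The counts of both rows were fractional in all 12 libraries, as kallisto gives where entries share reads.

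Mptx1 encodes a mucosal pentraxin, a family of secreted pattern recognition proteins. It had 0 counts in all 4 CV libraries, 24.6, 18.4, 18.1 and 20.0 CPM in ENR and 73.1, 77.5, 80.6 and 85.0 CPM in EN. Every EN library lay above every ENR library, and the log2 fold change between them was 1.96 (standard error 0.10, edgeR with Benjamini-Hochberg adjusted p = 1.2e-09). Against the floor of 3 counts per library, at most 0.404 CPM in CV, Mptx1 was at least 44.8-fold higher in ENR and at least 181-fold higher in EN. Its paralog Mptx2 had the opposite order of ENR and EN. Mptx2 had 0.985 ± 0.477 CPM in CV, 166 ± 13.8 in ENR and 2.53 ± 0.542 in EN (SD, n = 4), or -6.08 on the log2 scale from ENR to EN (edgeR with Benjamini-Hochberg adjusted p = 2.2e-15). The values of Mptx1 in ENR and EN were fractional as well.

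Reg1 was the most abundant of all 9481 transcripts per length in EN, with 42600 ± 4290 TPM (SD, n = 4). Its product belongs to the regenerating family of secreted lectins. Its level was 102.7, 89.3, 82.7 and 79.2 CPM in the CV libraries, 1547, 1457, 1383 and 1680 CPM in the ENR libraries and 17390, 20850, 22510 and 18920 CPM in the EN libraries. The cultures did not overlap. Reg1 rose 17.2-fold from CV to ENR (log2 fold change 4.10, standard error 0.10, edgeR with Benjamini-Hochberg adjusted p = 6.8e-14). It rose a further 13.1-fold from ENR to EN (log2 fold change 3.71, standard error 0.09, edgeR with Benjamini-Hochberg adjusted p = 9e-15). In EN it made up 67.7% to 70.1% of the counts of the 9 genes, against 1.12% to 1.49% in CV.

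Reg3b, an antibacterial lectin, had a dip in ENR. Its level was 794.0, 722.0, 904.0 and 1061 CPM in the CV libraries, 478.0, 428.4, 474.2 and 640.0 CPM in the ENR libraries and 3971, 4549, 4851 and 4748 CPM in the EN libraries. It fell by 0.78 on the log2 scale from CV to ENR (standard error 0.12, edgeR with Benjamini-Hochberg adjusted p = 4.8e-05). It rose 8.95-fold from ENR to EN (log2 fold change 3.16, standard error 0.13, edgeR with Benjamini-Hochberg adjusted p = 4.4e-12). Its spread between libraries was the widest of the 10 rows in CV and ENR, with a coefficient of variation of 17.0% and 18.4%.

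Reg3g, its close relative with activity against Gram-positive bacteria, showed the dip most clearly. It had 2459, 2440, 2488 and 2611 CPM in the CV libraries, 482.6, 451.3, 471.8 and 519.0 CPM in the ENR libraries and 2400, 2607, 2798 and 2616 CPM in the EN libraries. The CV and EN libraries overlapped, and both lay far above ENR. The log2 fold change was -2.38 from CV to ENR (standard error 0.05, edgeR with Benjamini-Hochberg adjusted p = 3.2e-14) and 2.44 from ENR to EN (standard error 0.05, adjusted p = 2.2e-15 by the same test). From CV to EN it was 0.06 (standard error 0.05, edgeR with Benjamini-Hochberg adjusted p = 0.26), and its sign turned to -0.37 with spike-in scaling and -0.27 with TPM. In the deposited mRNA copies Reg3g was higher in EN without overlap, with 4473 to 6734 in CV and 10340 to 16130 in EN. The median log2 change of all transcripts from CV to EN was 0.72 in copies. The likeness of CV and EN for Reg3g thus depended on the scaling, in both directions. Among the 10 rows Reg3g was the first in TPM in CV, with 6500 ± 288 TPM, and the third in EN, with 5380 ± 331 TPM (SD, n = 4). The values of Reg1, Reg3b and Reg3g were whole in all 12 libraries.

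The paralog Reg3a followed Reg1 rather than its neighbours. It had 39.4 ± 5.94 CPM in CV, 196 ± 23 in ENR and 2190 ± 186 in EN (SD, n = 4), with log2 fold changes of 2.32 from CV to ENR and 3.48 from ENR to EN (edgeR with Benjamini-Hochberg adjusted p = 6.9e-11 and 2.3e-14). Reg4 was at 17.9 ± 4.66 CPM in CV, 199 ± 5.5 in ENR and 666 ± 22.3 in EN (SD, n = 4). Within the Reg family, then, 3 genes rose at both steps and Reg3b and Reg3g fell before they rose.

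**Figure D2:**
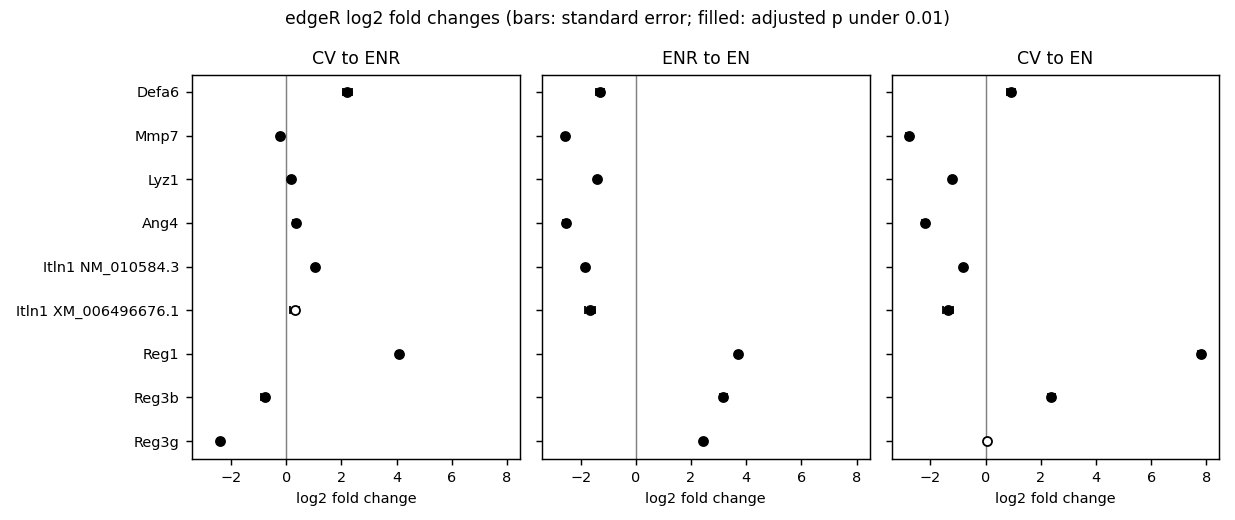
The log2 fold change (horizontal axis, 0 as a grey line) of 9 of the 10 transcript rows in each of the 3 comparisons, with the standard error as bars, mostly smaller than the points, and filled points at an adjusted p under 0.01. Mptx1 is left out because it had 0 counts in CV. The open points are Itln1 XM_006496676.1 from CV to ENR and Reg3g from CV to EN.

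The order of the levels per length differed between the cultures. In CV it ran from Reg3g over Lyz1 (3280 TPM), Reg3b (2390 TPM) and the main Itln1 row (1530 TPM) to Defa6, and in this stretch no neighbours overlapped between libraries. Mmp7 (277 TPM) and Reg1 (238 TPM) overlapped in CV. In ENR, Defa6 came first, Reg1 (3670 TPM) and Lyz1 (3320 TPM) overlapped, and so did Reg3b (1240 TPM) and Reg3g (1120 TPM). In EN, Reg1, Reg3b (9860 TPM) and Reg3g held the first 3 places without overlap, and Mmp7 (31.8 TPM), Itln1 XM_006496676.1 (27.4 TPM) and Ang4 (24.5 TPM) overlapped at the end. By rank among all 9481 transcripts, Mmp7 moved from place 470 in CV to 3159 in EN, and Reg3b from 74 to 5.

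The genes whose pattern was most like each member were found as the 3 other transcripts with the highest Pearson correlation of log2(CPM + 1) over the 12 libraries, among 9034 transcripts with a mean of at least 1 CPM. The 12 points form 3 cultures, so these values mostly describe the order of the culture means. For Defa6 these were Defa24 (r = 0.977), Zfp866 (0.976) and Nelfcd (0.974). For the main Itln1 row the nearest was Defa17 (r = 0.996). For Ang4 they were Nup155 (r = 0.997), the mitotic kinase gene Cdk1 (0.996) and Tacc3 (0.996), with Cdk1 at 95.8, 135 and 3.57 CPM in CV, ENR and EN. For Mmp7 they were Qsox2 (r = 0.998), Exosc2 (0.998) and Kcnq1 (0.997), and for Lyz1 Rbbp4 (0.998), Tmem209 (0.997) and Haus5 (0.997). For Reg1 they were Ugt2a3 (r = 0.999), Cyp2c29 (0.999) and Zg16 (0.998), of which Zg16 is a goblet cell lectin. For Mptx1 they were Ctss (r = 0.999), Ctrb1 (0.998) and Ccl6 (0.998), the nearest for Reg3b was Cndp2 (0.995), and for Reg3g they were Hsd17b11, Stom (both 0.997) and Lipa (0.995).

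Other genes known from Paneth cells were counted from a fixed list, of which 21 of 50 were in the table. From CV to ENR 17 rose and 4 fell (median log2 fold change 1.99). From ENR to EN 3 rose, 14 fell and 4 were not called, with a median of -1.95, where 35.5% of all transcripts were called higher and 37.2% lower. The list includes alpha-defensin rows described above, and all of these fell. Outside them, Mptx2 (log2 fold change -6.08), Wnt3 (-2.44), Habp2 (-1.92) and Kit (-0.80) fell. Guca2a (2.04), Ccl6 (2.28) and Pnliprp2 (0.74) rose, and Ang, Clps, Dll4 and Copz2 were not called. The summed level of the 21 was 1070 to 1260 CPM in CV, 4490 to 5130 CPM in ENR and 1500 to 1640 CPM in EN, so all ENR libraries lay above both other cultures. The 4 most abundant were Defa17, Defa24, Defa23 (201 ± 15.8, 1020 ± 82.5 and 171 ± 11 CPM in CV, ENR and EN) and Defa1 (166 ± 15.2, 743 ± 53.6 and 129 ± 7.11 CPM; SD, n = 4). Against 29.8% of all transcripts called higher from CV to ENR, 17 of these 21 were.

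Of 35 further genes of mucosal defence, 14 were in the table. From ENR to EN 7 rose, 5 fell and 2 were not called, with a median log2 fold change of 0.36, near the shares of all transcripts called higher (35.5%) and lower (37.2%). Pigr, the receptor that carries antibodies across the epithelium, rose at both steps, with 1100 ± 43.7, 2540 ± 134 and 5020 ± 485 CPM in CV, ENR and EN (SD, n = 4). Dmbt1, a secreted scavenger receptor, peaked in ENR with 643 ± 18.9, 2750 ± 173 and 391 ± 48.3 CPM (SD, n = 4). The goblet cell lectin Zg16, at 5.28 ± 0.287, 99.7 ± 12.4 and 1920 ± 178 CPM (SD, n = 4), followed the order of Reg1.

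Regulators of Paneth and secretory cells were mixed, with 8 of 21 rows higher and 3 lower from CV to ENR, and 9 higher and 7 lower from ENR to EN. Of all transcripts 29.8% were called higher and 30.2% lower in the first comparison, and 35.5% and 37.2% in the second. Fzd5, the Wnt receptor needed for Paneth cell maturation, rose from 130 ± 6.66 CPM in CV to 300 ± 3.37 in ENR and 453 ± 12.2 in EN (SD, n = 4). The 7 rows lower in EN than in ENR included Ephb3 (log2 fold change -4.24), Sox9 (-2.74), Ephb2 (-1.77) and Foxa2 (-1.59). Ctnnb1, which encodes beta-catenin, had 1430 ± 35.8, 1350 ± 33.4 and 1600 ± 21.1 CPM, and Hnf4a had 726 ± 15.1, 708 ± 9.65 and 703 ± 12.3 CPM (SD, n = 4). Hnf4g rose from 122 ± 5.03 to 369 ± 9.22 and 1410 ± 105 CPM (SD, n = 4).

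Among 15 rows of 14 genes of interleukin 22 and NF-kB signalling, 4 rose and 7 fell from CV to ENR, and 10 rose and 2 fell from ENR to EN, beside 29.8% higher and 30.2% lower, and 35.5% higher and 37.2% lower, of all transcripts. The main row of Stat3, which acts downstream of the interleukin 22 receptor, had a dip in ENR as Reg3g did, with 121 ± 9.06, 54.1 ± 9.67 and 117 ± 12.7 CPM in CV, ENR and EN (SD, n = 4). Its log2 fold change was -1.17 from CV to ENR and 1.11 from ENR to EN (edgeR with Benjamini-Hochberg adjusted p = 1.8e-07 and 2.1e-07). Jak1 had 161 ± 5.53, 104 ± 4.32 and 134 ± 10.3 CPM, and Nfkb1 had 76.7 ± 1.97, 124 ± 2.56 and 103 ± 5.39 CPM (SD, n = 4). Gpx2, a glutathione peroxidase gene counted on this list though not a part of either pathway, fell at both steps, with 184 ± 9.49, 84.3 ± 2.29 and 10.6 ± 2 CPM (SD, n = 4). The interleukin 22 receptor genes Il22ra1 and Il10rb had no dip in ENR. Their log2 fold changes were 0.18 and 0.11 from CV to ENR and 1.20 and 1.32 from ENR to EN.

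Chromatin was read in the 94469 regions of the deposited union of peaks, on the mouse build mm9, and a region was assigned to a gene when it lay within 10 kb of it. There were 26 such regions, 7 at Reg3b, 6 at Itln1, 4 each at Reg1 and Reg3g, 3 at Mmp7 and 2 at Lyz1. Ang4 (chr14:52383553-52393265) and Mptx1 had no region in their windows, where the Mptx1 window was drawn around its start alone. Defa6 had no entry in the annotation used and was not placed. Values are normalized scores that the authors rounded to whole numbers. For ATAC, 12 of 26 regions differed between the cultures in limma's moderated F test at an adjusted p under 0.01, against 26.9% of all regions tested. Of the 26, 1 was higher and 1 lower in ENR than in CV (5.52% and 2.41% of all regions), 6 were higher and 3 lower in EN than in ENR (6.71% and 7.31%), and 8 were higher and 4 lower in EN than in CV (14.3% and 10.2%). Some regions counted at Reg3b lie in exons of the nearby gene Reg3a, and these are among the 6 higher in EN than in ENR. A region counted at Itln1 lies at the start of the gene Gm9765. For H3K27ac the F test passed at 1 of 26, against 2.93% of all regions, and that region was higher in EN than in ENR and in CV (0.418% and 2.68% of all). It held for 0 of 22 in H3K4me3 (2.35% of all regions) and for 0 of 26 in H3K27me3 (0.33% of all), with an unadjusted p under 0.05 at 12 and 3 regions. On simulated data the same test missed nearly all changed regions in H3K27me3 and many in H3K27ac and H3K4me3, so a change in these marks could go undetected.

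The 3 Reg genes lie within 98 kb of chromosome 6, with Reg3b (chr6:78320879-78323460) and Reg1 (chr6:78375974-78378661) on the plus strand and Reg3g (chr6:78416262-78418868) on the minus strand. The 250 bases before the start of each are printed because open chromatin at the starts of Reg1 and Reg3g moved in opposite directions. They are RefSeq promoters (table build GRCm38.p6), counted from the RefSeq start, which for Reg1 lies a few bases past the annotated start given above, that matched mm9 exactly, at chr6:78375727-78375976, chr6:78320629-78320878 and chr6:78418869-78419118, read 5′ to 3′ on the gene's strand. Capitals mark matches on either strand of the motifs TATAAA, TTCNNNGAA and CTTTGAT, and of TTCNNNGAA with 1 more N, a wider spacing that STAT6 prefers.
Reg1: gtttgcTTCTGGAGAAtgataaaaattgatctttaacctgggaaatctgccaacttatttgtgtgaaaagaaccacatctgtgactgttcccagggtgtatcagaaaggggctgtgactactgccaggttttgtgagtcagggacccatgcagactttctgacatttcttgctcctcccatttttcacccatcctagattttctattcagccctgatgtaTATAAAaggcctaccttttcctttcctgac
Reg3b: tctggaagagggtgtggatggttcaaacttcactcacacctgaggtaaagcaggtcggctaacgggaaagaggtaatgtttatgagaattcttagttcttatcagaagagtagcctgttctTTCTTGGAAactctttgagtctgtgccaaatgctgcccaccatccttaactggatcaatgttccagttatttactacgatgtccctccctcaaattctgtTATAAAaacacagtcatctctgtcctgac
Reg3g: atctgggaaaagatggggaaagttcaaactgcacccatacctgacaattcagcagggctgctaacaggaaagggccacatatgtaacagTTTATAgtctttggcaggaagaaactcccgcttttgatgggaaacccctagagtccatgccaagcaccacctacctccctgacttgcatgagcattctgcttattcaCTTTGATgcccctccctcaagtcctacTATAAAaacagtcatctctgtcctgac
All 3 held TATAAA close to the start, from base -30 in Reg1, -29 in Reg3b and -27 in Reg3g, where base -1 is the last before the RefSeq start. Of 32851 RefSeq promoters 12.4% held it anywhere in the 250 bases before the start, on either strand, and the shares below were counted likewise. Reg3g held a second copy from base -161 on the other strand. Reg3b held TTCNNNGAA, the spacing that STAT proteins bind, from base -129 (7.02% of all promoters), and Reg1 held the wider spacing from base -244 (5.85%). Reg3g held CTTTGAT, the core of TCF sites, from base -54 (3.21%). None of the 3 held CAAAGTCCA, an HNF4 motif, which 0.384% of all promoters held. Reg3b and Reg3g were identical in 173 of 253 aligned columns (68.4%) and shared the 20 bases before the start, while Reg1 was 48.7% identical to Reg3b and 48.2% to Reg3g, near the 47.0% of the unrelated pair Lyz1 and Itln1.

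At Reg1 the region centred 263 bp before the start (chr6:78375466-78375957) had ATAC scores of 11, 8, 5 and 14 in CV, 25, 30, 33 and 19 in ENR and 45, 35, 41 and 61 in EN. The cultures did not overlap, in the same order as Reg1 RNA. The log2 difference was 1.45 from CV to ENR (standard error 0.26, limma adjusted p = 0.00087) and 2.20 from CV to EN (standard error 0.26, limma adjusted p = 3.5e-06), while from ENR to EN it was 0.74 (standard error 0.26, limma adjusted p = 0.044) and missed the threshold. A region within the Reg1 gene, centred 550 bp past the start (chr6:78376392-78376657), was the 1 that differed in H3K27ac. Its H3K27ac scores were 1, 3 and 3 in CV, 5, 4 and 5 in ENR and 31, 36 and 54 in EN, a log2 difference of 2.83 from ENR to EN (standard error 0.57, limma adjusted p = 0.0053). This call was lost with the EN4 library left out (adjusted p = 0.011) and without a trend of the spread (0.055). The same region had H3K4me3 scores of 0, 1 and 1 in CV, 1, 2 and 2 in ENR and 5, 14 and 21 in EN, with an adjusted p of 0.026 in the F test by limma.

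Beyond the 3′ end of Reg1 lay 2 regions that were named after their values were seen. The one centred 3718 bp past the start (chr6:78379561-78379823) had ATAC scores of 1, 1, 0 and 1 in CV, 2, 5, 5 and 2 in ENR and 23, 26, 20 and 33 in EN, a log2 difference of 2.62 from ENR to EN (standard error 0.34, limma adjusted p = 2.4e-05). The one centred 4185 bp past the start (chr6:78379954-78380364) had 4, 2, 5 and 5 in CV, 2, 6, 6 and 6 in ENR and 26, 20, 43 and 43 in EN. At both, EN lay far above CV and ENR. At the first, ENR lay above CV without overlap, with a log2 difference of 1.33 that missed the threshold (limma adjusted p = 0.011), and at the second they overlapped.

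**Figure D3:**
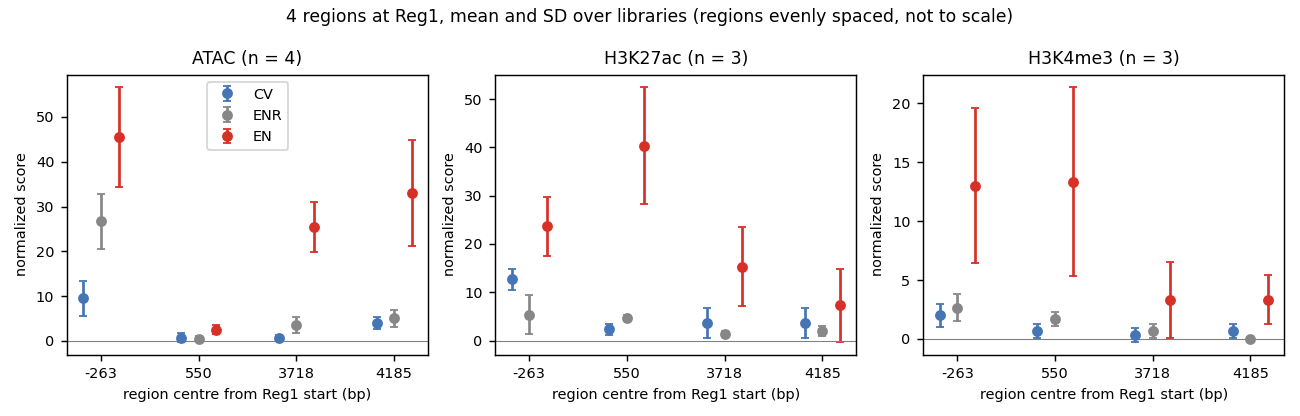
Mean normalized score with its SD (vertical axes) of the 4 regions at Reg1, ordered by the distance of their centre from the Reg1 start in bp (horizontal axes, evenly spaced), in CV, ENR and EN, for ATAC (4 libraries per culture), H3K27ac and H3K4me3 (3 each). ENR lies apart from CV in ATAC at the region upstream of the start, and EN lies highest at all 4 regions in each dataset.

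At Reg3g the region over the start (chr6:78418713-78419131) had ATAC scores of 56, 46, 41 and 66 in CV, 22, 27, 30 and 24 in ENR and 15, 23, 23 and 32 in EN. CV lay above both other cultures without overlap, whereas ENR and EN overlapped. The log2 difference was -0.98 from CV to ENR (standard error 0.21, limma adjusted p = 0.0033) and -0.18 from ENR to EN (standard error 0.21, limma adjusted p = 0.58). Reg3g RNA was thus 5.41-fold higher in EN than in ENR at ATAC scores of 23.2 ± 6.95 in EN and 25.8 ± 3.5 in ENR (SD, n = 4). The H3K27ac scores of this region were 16, 24 and 14 in CV, 7, 4 and 8 in ENR and 19, 18 and 23 in EN. They had the dip of the RNA and did not overlap between ENR and the other cultures, but did not pass the F test (limma adjusted p = 0.088). A second region, centred 595 bp before the start, had 13, 9, 11 and 12 in CV, 9, 7, 10 and 12 in ENR and 1, 3, 6 and 4 in EN in ATAC.

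At Reg3b the 2 regions at the start were weak, with mean ATAC scores from 1.5 to 7.25, and neither passed the test between cultures (limma adjusted p = 0.58 and 0.30). The strongest ATAC region of all 26 lay 8691 bp before the Reg3b start (chr6:78311869-78312507), with 105, 93, 96 and 127 in CV, 73, 79, 114 and 97 in ENR and 74, 90, 108 and 152 in EN. These overlapped in all 3 cultures (limma adjusted p = 0.55). Its H3K27ac scores were 20, 13 and 3 in CV, 4, 5 and 2 in ENR and 21, 15 and 27 in EN, and the F test missed the threshold (limma adjusted p = 0.047). A region in an exon of Reg3a, 11119 bp past the Reg3b start and named after its values were seen, had mean ATAC scores of 0.75 ± 0.5 in CV, 1.25 ± 0.5 in ENR and 10.2 ± 2.99 in EN (SD, n = 4).

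Mmp7 (chr9:7692086-7699585, plus strand) and Lyz1 (chr10:116724852-116729924, minus strand) each had a region over the start that changed in ATAC, in opposite directions. Their promoters are printed for this reason, at chr9:7691840-7692089 and chr10:116729925-116730174 of mm9, from RefSeq as above, where the RefSeq start of Mmp7 also lies a few bases past the annotated one. Capitals again mark motif matches, here TATAAA alone.
Mmp7: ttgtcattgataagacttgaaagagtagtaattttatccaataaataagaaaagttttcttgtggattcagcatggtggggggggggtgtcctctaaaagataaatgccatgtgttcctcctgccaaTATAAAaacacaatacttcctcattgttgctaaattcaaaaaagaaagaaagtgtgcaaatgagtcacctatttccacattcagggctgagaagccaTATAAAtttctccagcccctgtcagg
Lyz1: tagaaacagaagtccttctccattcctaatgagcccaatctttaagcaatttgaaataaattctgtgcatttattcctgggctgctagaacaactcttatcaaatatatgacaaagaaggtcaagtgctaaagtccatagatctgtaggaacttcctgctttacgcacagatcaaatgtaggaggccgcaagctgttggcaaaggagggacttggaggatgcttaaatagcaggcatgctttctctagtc
Mmp7 held TATAAA from bases -123 and -26, and the Lyz1 window held none of the 5 motifs searched. At the Mmp7 start (chr9:7691981-7692250) the ATAC scores were 11, 11, 7 and 5 in CV, 6, 7, 6 and 4 in ENR and 1, 0, 1 and 1 in EN. EN lay below both other cultures without overlap, as the RNA did, and the log2 difference from ENR to EN was -1.98 (standard error 0.33, limma adjusted p = 3e-04). A further Mmp7 region, centred 2440 bp before the start and within the gene AV064505, had mean scores of 5.50 ± 2.08, 6.50 ± 2.08 and 6.00 ± 2.83 (SD, n = 4; limma adjusted p = 0.85).

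At the Lyz1 start (chr10:116729777-116730121) the ATAC scores were 9, 11, 11 and 14 in CV, 21, 18, 23 and 15 in ENR and 25, 23, 17 and 20 in EN. Here EN lay above CV without overlap, a log2 difference of 0.86 (standard error 0.20, limma adjusted p = 0.0026), while Lyz1 RNA was 2.35-fold lower in EN than in CV. In the deposited mRNA copies Lyz1 overlapped between CV (2360 to 3249) and EN (1797 to 2735). The F test of the ATAC scores had an adjusted p of 0.0044 by limma, which passed 0.01 no longer when CV1 (0.022), CV2 (0.015) or CV3 (0.014) was left out, nor with quantile normalization (0.013). At the Itln1 start (chr1:173465321-173465549) the scores were 8, 5, 7 and 13 in CV, 12, 11, 13 and 15 in ENR and 12, 9, 7 and 7 in EN, highest on average in ENR but overlapping (limma adjusted p = 0.13). A region 9677 bp before the Itln1 start (chr1:173474875-173475329), named after its values were seen, had 13, 14, 12 and 15 in CV, 9, 9, 15 and 12 in ENR and 3, 4, 1 and 2 in EN, a log2 difference of -1.86 from ENR to EN (standard error 0.29, limma adjusted p = 0.00013).

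**Figure D4:**
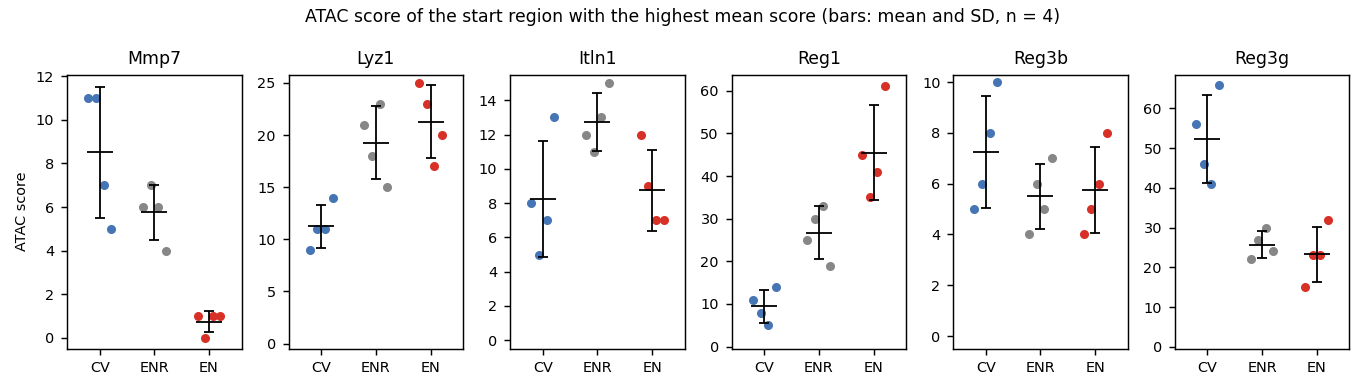
ATAC normalized score (vertical axes, each panel its own scale) in each of the 4 libraries of CV, ENR and EN (points) with mean and SD (bars), for the region with the highest mean score within 1 kb of the start of Mmp7, Lyz1, Itln1, Reg1, Reg3b and Reg3g. Mmp7 was lowest in EN, Lyz1 and Reg1 were lowest in CV, Reg3g was highest in CV, and Itln1 and Reg3b overlapped in all cultures.

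Hnf4g reads near these genes rest on 1 library per culture and give no test, with 84340 reads in regions in CV, 352600 in ENR and 1816497 in EN. Over the 26 regions there were 14, 46 and 179 reads, or 166 (95% exact Poisson interval 90.8 to 279), 130 (95.5 to 174) and 98.5 (84.6 to 114) RPM, which is reads per 1000000 of the library's reads in regions. The intervals cover counting error only and overlap between all 3 cultures. In EN, the Reg3b region 8691 bp before the start had 58 reads, or 31.9 RPM (24.2 to 41.3), more than or as many as 91.8% of all regions, and 0 reads in the 2 other libraries. With 0 reads the library allows up to 35.6 RPM in CV and 8.51 RPM in ENR, so for CV a difference was not detectable at this depth. The region before the Reg1 start had 20 reads in EN, or 11 RPM (6.73 to 17.0), as did the Lyz1 start, where ENR had 10 reads, or 28.4 RPM (13.6 to 52.2). Other regions lay lower in EN. The Itln1 start and the region 9677 bp before it each had 4 reads in CV, or 47.4 RPM (12.9 to 121). In EN they had 2.75 RPM (0.894 to 6.42) and 1.1 RPM (0.133 to 3.98). The region 595 bp before the Reg3g start had 8 reads in ENR, or 22.7 RPM (9.8 to 44.7), and 3.85 RPM (1.55 to 7.94) in EN.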

How the data were processed

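RNA was measured in 12 libraries (4 per culture), ATAC in 4 per culture, each histone mark in 3 per culture and Hnf4g in 1 per culture. Of 66 samples listed, 12 were not analysed here, among them the RNA libraries of Hnf4g knockout and wild-type organoids in ENR. The authors deposited expected counts and TPM per transcript from kallisto (0.43.0 per the submitters' processing notes; RefSeq index, strand-specific per the study's methods). For matching to proteins, the methods state that the transcript database was limited to transcripts with a quantified protein. Whether the deposited table is that limited set is not stated in the sources used here. The TPM of the listed transcripts and 92 spike-ins sum to 1000000 in every library, so reads of near-identical transcripts that are not listed may sit on listed ones. The authors also deposited a signal in mRNA copies derived from the spike-ins. For chromatin, the authors mapped reads to mm9 with BWA, called peaks with MACS2 (2.0 per the processing notes), and deposited normalized scores rounded to whole numbers in 94469 regions and, for Hnf4g, raw counts. How the scores were normalized is not given in the sources used here, and whether region starts count from 0 or 1 is not either, so coordinates are as deposited.

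Expected counts were rounded and tested with edgeR 4.0.16 (R 4.3.3) by its quasi-likelihood test with TMM scaling over all 12 libraries, without spike-ins, on 9288 transcripts above 0 in at least 4 libraries, with Benjamini-Hochberg adjustment and a threshold of 0.01. Scores were tested with limma 3.58.1 on log2(score + 1) with a trend in the spread, on regions above 0 in at least 3 libraries, so differences are on that scale and understate low regions. Hnf4g counts have exact Poisson intervals of 95% and a floor of 3 counts. These cover counting error only, since reads made by PCR are not independent molecules. Both tests were tested on simulated data with known changes.

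All 9 genes were named, with the 4 most abundant genes of each related list, up to 3 of the likest transcripts of each gene (some are not reported here), and regions within 1 kb of a start or with the highest ATAC score of a gene. A further 4 regions, and a few more genes of the regulator and signalling lists, were named after their values were seen. The members and lists were chosen with earlier results of these data known. Genes were placed by GENCODE M1 on mm9, except Mptx1, which was placed by its RefSeq promoter matched to mm9. Alternatives were DESeq2 1.42.0, other scalings, filters and pseudocounts, the replicate number as a block, and leaving out each library.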

Additional observations from a re-analysis of the deposited data

Results flagged for a closer look

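In ENR, Defa6 was at 444.8 CPM in the ENR1 library and at 351.8 to 366.9 CPM in the others, a gap of 0.838 of the group's range. The other values that stood apart from their group were ATAC scores, which are whole numbers and low here, so 1 library can differ from 3 identical ones. The Mmp7 start region had 0 in EN2 and 1 in the other EN libraries. The region 550 bp past the Reg1 start had 1 in EN1 and 3 in the others. The region 3718 bp past the Reg1 start had 0 in CV3 and 1 in the others, and the one at 4185 bp had 2 in ENR1 and 6 in the others. The region 45 bp before the Reg3b start had 3 in CV4 and 2 in the others. The region 11119 bp past the Reg3b start had 0 in CV3 and 1 in the other CV libraries, and 2 in ENR3 and 1 in the other ENR libraries. In all, 74 groups of 4 libraries were examined and 8 were found, 1 of 29 in RNA and 7 of 45 in ATAC, where chance gives about 1 in 20.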

How the results depend on the processing

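Of 624 values of single genes under 21 alternatives, 590 kept their direction and side of the threshold, 30 kept the direction but lost the call, and 4 reversed. Reg3g from CV to EN turned to -0.37 with spike-in scaling and to -0.27 with limma on log2(TPM + 1) or log2(TPM + 0.1), and Itln1 NM_010584.3 from CV to EN turned to 0.02 with the deposited mRNA copies. These settings move all transcripts: the median log2 change from CV to EN was -0.49 with spike-in scaling, -0.34 in TPM and 0.72 in copies, and higher calls were 25.6% of all calls with spike-in scaling and 77.7% in copies, against 46.0%. With copies, 5 rows were called from CV to ENR instead of 9. In copies the ENR and EN libraries overlapped for Defa6 (7142 ± 3628 and 3738 ± 1024; SD, n = 4), Lyz1 (3882 ± 1945 and 2094 ± 439) and both Itln1 rows. The falls of Defa6 and Lyz1 from ENR to EN, and of Lyz1 from CV to EN, each lost their call in 1 alternative. Leaving out 1 library gave 6 to 9 rows from CV to ENR, 10 from ENR to EN and 9 from CV to EN, 10 to 12 ATAC regions, 0 to 1 in H3K27ac (0 without EN4), 0 to 1 in H3K4me3 (1 without CV2 or CV4) and 0 in H3K27me3. For H3K27ac 0 regions were called without a trend and with the replicate block, and 5 at an adjusted p under 0.05. For H3K4me3 3 were called with quantile normalization and 4 at an adjusted p under 0.05. The cause was not tested. Same-numbered libraries did not deviate together in RNA (0 of 12 correlations over 0.1, from -0.059 to 0.095). In ATAC 8 of 12 were over 0.1 (0.07 to 0.46), a hint of pairing, but not all, and no label ties the numbers, so they were not taken as pairs. With the replicate block 9, 10 and 9 rows and 11 ATAC regions were called. The region lost, 21295 bp past the Itln1 start, had an adjusted p of 0.012, and the H3K27ac region at Reg1 had 0.25.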
